A study of Homo sapiens with 4 samples.

Results

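The comparison set the 2 libraries of exercised tumors, exercise alone and the combination of exercise with radiation, against the 2 libraries of sedentary tumors, control and radiation alone. Every library was placed by its label, and the 4 libraries are all those of the series. The tumors were A549 xenografts, grown from a human non-small cell lung cancer (NSCLC) line in the flank of male BALB/c athymic nude mice, 6 weeks old and with 5 mice in each group. Mice of the exercise groups ran on a treadmill at 8.0 m/min for 30 min in each of 3 sessions per week over 2 weeks, and radiation was given as 2 Gy per session on the same schedule, after the run in the combination group. Control tumors received neither treatment. The time from the last session to the collection of the tumors is not given in the sources used here. Athymic hosts lack mature T cells, and the labels do not say whether a library held RNA of 1 tumor or of several. Each side of the comparison held 1 irradiated and 1 unirradiated library, so that radiation was balanced across the sides.

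Reads assigned to genes totalled 33432637 to 35408705 per library. Of 38137 genes in the files, 19393 had a mean of at least 20 reads and were compared, as read counts scaled to library size (CPM) after TMM, which aligns libraries on the bulk of their genes. Mitochondrial mRNAs took 5.42% of reads in control, 6.23% with radiation, 6.62% with exercise and 6.36% in the combination. Markers of A549 and lung epithelium summed to 29068 to 33960 CPM, and those of mouse host cells, whose reads count where they match a human gene, to much less. Fibroblast markers summed to 259 to 429 CPM, endothelial markers to 31.9 to 37.9 CPM and erythroid markers to 0.633 to 0.824 CPM. In a bulk library, fewer cells of a type and less RNA per cell cannot be told apart.

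A running animal changes the flow, pressure and oxygen supply of its tissues, and growing cells answer such changes within minutes to hours through immediate early genes. These genes encode short-lived transcription factors such as FOS, JUN and EGR1, whose promoters carry CArG boxes, bound by serum response factor, and cyclic AMP response elements (CRE), bound by the CREB and ATF proteins. Heat shock factor acts in the same manner through arrays of GAA blocks in the promoters of chaperone genes. Sterol levels set the genes of cholesterol synthesis through the SREBP factors. This is background, and whether any of these routes acted in these tumors was not tested.

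For each gene, a value was called higher where both exercised libraries lay above both sedentary ones, and lower in the reverse case. Higher values were found for 2248 genes, 11.6% of those compared, and lower values for 2562 genes, 13.2%. An arbitrary order of the 4 libraries would separate the sides of a gene, in either direction, with an exact permutation probability of 0.33. These counts are therefore a description and not a measure of an exercise effect. The higher genes were 46.7% of the separated ones, and this share moved with the scaling, to 36.6% (1691 higher, 2935 lower) with total-count scaling and 36.8% (1631 higher, 2799 lower) with FPKM. The separation was small for most of them. The nearest libraries of the 2 sides differed by a median of 1.044-fold among the higher genes and 1.058-fold among the lower genes, and the widest gaps were 2.099-fold and 2.024-fold. A gap larger than the counting error of the nearest pair, by an exact 95% interval of their ratio, was left in 335 genes on the higher side (1.73%) and 379 on the lower side (1.95%). A gap of at least 1.5-fold was present in 17 higher genes (0.0877%) and 54 lower genes (0.278%). The same libraries set apart by radiation gave 5086 higher genes (26.2%) and 5349 lower genes (27.6%).

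The 2 exercise ratios of a gene, exercise against control and combination against radiation, share no library. Across the 19393 genes their log2 values had a Pearson r of 0.0462 and a Spearman rho of 0.0241, and 50.3% of genes had the same sign in both. Genes are not independent replicates, and these coefficients describe the 4 libraries. Among the 15385 genes with a mean of at least 100 reads the Pearson r was 0.0311. The ratios of the 2 pairs were nearly unrelated over all genes, while most immediate early genes and a list of ribosomal and structural RNAs (rRNA copies, 7SL, 7SK, RMRP and RPPH1) lay in opposite corners of the plot of the 2 ratios.

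**Figure D1:**
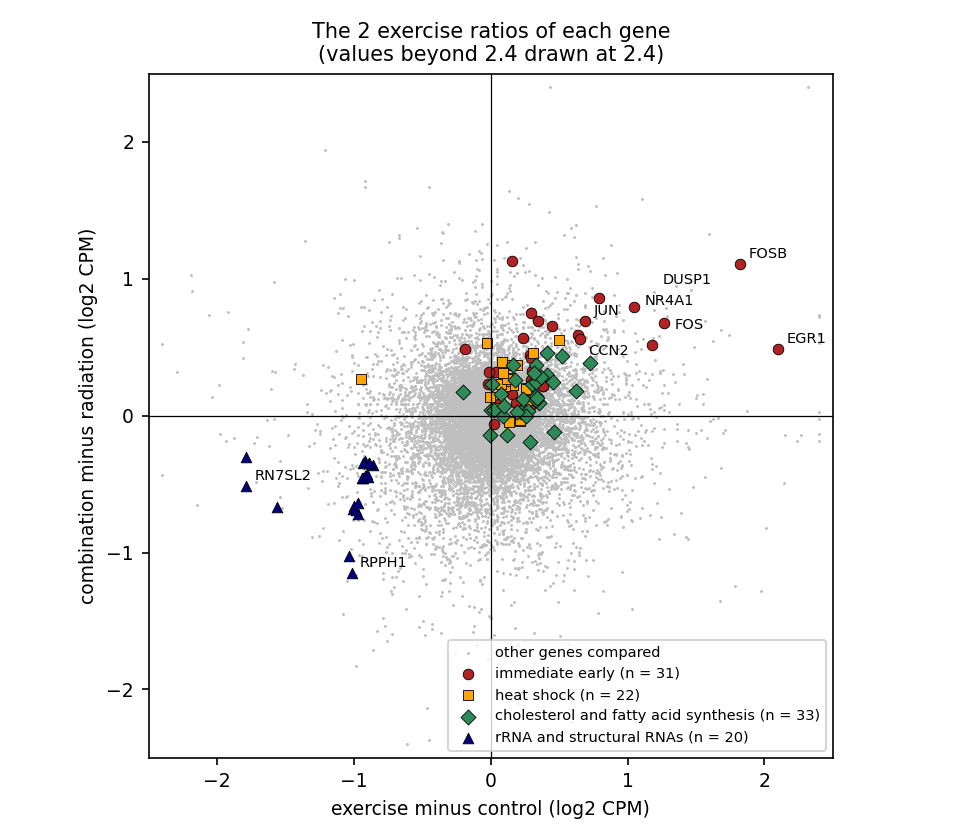
Each point is 1 of 19393 genes, with the difference between exercise and control on the horizontal axis and between combination and radiation on the vertical axis, both in log2 CPM, and values beyond 2.4 drawn at 2.4. The cloud of all genes is round (r 0.0462), the 31 immediate early genes lie mostly to the upper right and the 20 ribosomal and structural RNAs lie to the lower left.

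A test across genes was made with edgeR's quasi-likelihood fit of an exercise and a radiation term over all 4 libraries, with Benjamini-Hochberg adjustment. Each treatment group had 1 library, so the residual of this fit is the departure of the 4 libraries from additive effects, with 1 degree of freedom, and its spread was shared across genes. The exercise term passed at an adjusted p of 0.05 in 16 genes, of which 11 rose (0.0567% of genes compared) and 5 fell (0.0258%), while 1086 genes had an unadjusted p under 0.05. The radiation term passed in 1076 genes that rose (5.55%) and 727 that fell (3.75%). With exercise as the only term 0 genes passed in edgeR, with 277 at an unadjusted p under 0.05, and DESeq2 with both terms called 33 genes, 15 of them among the 16. For a single gene, 2 libraries against 2 cannot reach a two-sided exact permutation p below 0.33.

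The genes that rose encode, for the larger part, immediate early transcription factors and the secreted or feedback proteins that are induced with them. They include DUSP1, NR4A1, FOSB, ATF3, FOS, JUN, MYH7, NR4A1AS, CCN2 and ID1, some of which lie outside the rule for named genes and are given because they passed the fit.

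The list of immediate early genes held 31 genes that were compared. Of these, 18 were higher in both exercised libraries (58.1%, against 11.6% of all genes) and 0 were lower (against 13.2%), 15 of the 18 with a gap beyond counting error, and 6 rose in the fit. The median difference between the sides over the list was 0.36 on the log2 scale, beside 0.0023 over all genes. It was 0.30 between exercise and control and 0.44 between combination and radiation, and 28 and 30 of the 31 genes had a ratio above 1 in these pairs.

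NR4A1 encodes an orphan nuclear receptor that is induced by growth signals and shear stress, and it had the widest gap of the genes with a mean of at least 100 reads. Its level was 53.6 CPM in control, 52 CPM with radiation, 111 CPM with exercise and 90.2 CPM in the combination. The 2 sedentary libraries were alike, and the nearest exercised library was 1.68-fold above them (95% counting interval 1.59 to 1.78). NR4A1 rose by a log2 value of 0.92 (SE 0.10, adjusted p 0.00574, edgeR). The antisense gene NR4A1AS (chr12:52058750-52059500, GRCh38) lies inside the last part of NR4A1 (chr12:52022832-52059503) and had 516 reads in control, 383 with radiation, 834 with exercise and 689 in the combination. The strand setting of the counting is not given in the sources used here, so that reads of the 2 genes cannot be told apart.

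DUSP1 encodes a phosphatase that switches off MAP kinases and is itself induced early, and is counted here among the MAPK feedback genes. It was measured at 37.8 CPM in control, 60.8 CPM with radiation, 86.4 CPM with exercise and 114 CPM in the combination. DUSP1 rose by 1.05 (log2, SE 0.10, adjusted p 0.00565, edgeR), which was the lowest adjusted p of all genes. Radiation alone and exercise alone both lay above control, and the combination lay above either.

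The FOS and JUN families form the AP-1 dimer. FOSB had 5.52 CPM in control, 14.4 CPM with radiation, 19.5 CPM with exercise and 31.1 CPM in the combination, and rose by 1.44 (log2, SE 0.17, adjusted p 0.0075, edgeR). JUN had 97.2, 112, 157 and 181 CPM in the same order, and rose by 0.69 (log2, SE 0.10, adjusted p 0.0265, edgeR), with an equal difference of 0.69 in both pairs. FOS itself had 59.8, 144, 144 and 231 CPM. Its radiation and exercise libraries touched, so FOS was counted as overlapping, although the fit with a radiation term placed it among the genes that rose (0.97, SE 0.13, adjusted p 0.0239, edgeR). JUNB was higher, with 147 and 128 CPM in the sedentary libraries and 187 and 206 CPM in the exercised ones, and did not pass the fit (adjusted p 0.258, edgeR).

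ATF3, a stress-induced partner of these factors, had 15.7 CPM in control, 24.6 CPM with radiation, 27.2 CPM with exercise and 44.5 CPM in the combination. It rose by 0.83 (log2, SE 0.11, adjusted p 0.0221, edgeR), with differences of 0.79 and 0.86 in the 2 pairs, and a gap of only 1.11-fold between radiation and exercise. EGR1, a zinc finger factor of the same early response, had 6.39 CPM in control, 20.8 CPM with radiation, 27.4 CPM with exercise and 29.1 CPM in the combination. Control alone was far lower than the rest for EGR1, whose difference was 2.10 in the unirradiated pair and 0.49 in the irradiated pair, and it did not pass the fit (adjusted p 0.25, edgeR). EGR3 had 28 reads in control, 31 with radiation, 62 with exercise and 42 in the combination. At this depth the gap of EGR3 was within counting error.

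Promoters of these genes were read from RefSeq (GRCh38.p14), 250 bases before to 50 after each start, which held 14071 of the 19393 genes compared. The bases before the start are shown for EGR1, DUSP1 and the chaperone gene HSPA8, picked after their values were seen, EGR1 from outside the rule for named genes, because they hold the textbook elements of the early and heat shock responses. Capitals mark a CArG box in EGR1 (chr5:138465229-138465478, plus strand), starting 105 and 83 bases before the start that the table gives, a full CRE (TGACGTCA) in DUSP1 (chr5:172771196-172771445, minus strand), starting 125 bases before it, and a heat shock element of 3 blocks (GAANNTTCNNGAA or TTCNNGAANNTTC) in HSPA8 (chr11:123062137-123062386, minus strand), starting 230 and 55 bases before it.
EGR1: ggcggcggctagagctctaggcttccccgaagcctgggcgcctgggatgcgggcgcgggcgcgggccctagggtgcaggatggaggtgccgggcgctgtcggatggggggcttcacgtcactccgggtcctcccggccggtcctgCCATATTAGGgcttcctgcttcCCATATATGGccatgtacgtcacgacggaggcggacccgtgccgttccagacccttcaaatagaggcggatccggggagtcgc
DUSP1: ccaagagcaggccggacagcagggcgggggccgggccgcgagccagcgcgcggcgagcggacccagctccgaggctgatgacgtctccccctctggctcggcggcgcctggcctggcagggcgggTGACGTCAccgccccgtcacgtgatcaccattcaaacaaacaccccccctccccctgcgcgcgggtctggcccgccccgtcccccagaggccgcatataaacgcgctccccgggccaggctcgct
HSPA8: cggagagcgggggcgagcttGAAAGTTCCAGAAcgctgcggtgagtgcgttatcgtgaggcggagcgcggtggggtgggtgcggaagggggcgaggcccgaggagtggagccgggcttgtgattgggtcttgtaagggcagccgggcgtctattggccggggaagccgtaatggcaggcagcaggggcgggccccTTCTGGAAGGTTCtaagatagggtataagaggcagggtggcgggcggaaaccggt
Searched on both strands, a CArG box was present in 1.02% of the promoters of genes compared and in 2 of 23 immediate early promoters (8.7%), a full CRE in 2.81% and in 2 of 23 (8.7%). The short CRE motif CGTCA, which the full CRE contains, was present in 31.3% and in 14 of 23 (60.9%). Among the 13 immediate early promoters of genes higher with exercise, 1 held a CArG box, 0 a full CRE and 7 the short motif (53.8%). DUSP1 stood among 15 MAPK feedback promoters, of which 2 held a full CRE (13.3%). The heat shock element of 3 blocks was present in 0.37% of promoters of genes compared and in 4 of 20 chaperone promoters (20%), and in 2 of the 12 whose gene was higher with exercise. A match describes these letters in this window and is not evidence of binding.

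MAPK feedback genes encode the phosphatases and Sprouty proteins that restrain this pathway. They were higher in 7 of 20 cases (35%) and lower in 2 (10%), beside 11.6% and 13.2% of all genes. Their median difference between the sides was 0.14. Beside DUSP1 the clearest was PHLDA1, with 67.2 CPM in control, 65.4 CPM with radiation, 86.5 CPM with exercise and 85.8 CPM in the combination. The libraries of each side were nearly equal for PHLDA1 and its sides were 1.28-fold apart, yet it did not pass the fit (0.38, SE 0.09, adjusted p 0.338, edgeR). DUSP4, DUSP6, SPRY2 and SPRY4 overlapped between the sides. EGFR ligands and receptors, upstream of the same kinases, were higher in 2 of 12 cases (16.7%, beside 11.6% of all genes) and lower in 0.

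**Figure D2:**
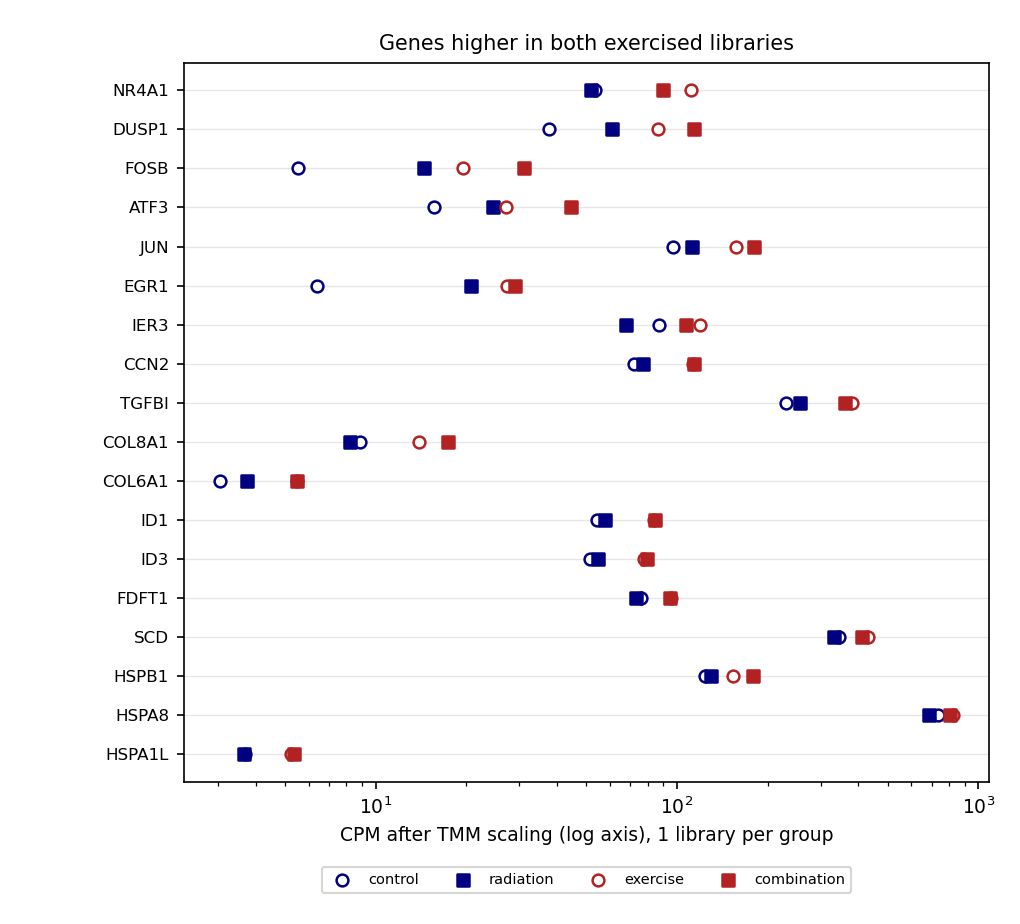
The CPM of 18 genes in the 4 libraries is plotted on a log axis, with sedentary libraries in blue, exercised libraries in red and irradiated libraries as filled squares. In each row both red symbols lie to the right of both blue ones, with little space between radiation and exercise for ATF3 and a clear space for NR4A1, JUN, CCN2 and TGFBI.

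CCN2 and the ID genes were also on the higher side. CCN2, the connective tissue growth factor and a target of the YAP and SRF factors, had 71.9 and 76.9 CPM in the sedentary libraries and 113 and 114 CPM in the exercised ones. It rose by 0.61 (log2, SE 0.09, adjusted p 0.0416, edgeR), and its level was close between the irradiated and unirradiated library of each side. ID1, an inhibitor of helix-loop-helix factors that answers BMP signals, had 54.5, 57.7, 83.8 and 84.5 CPM in control, radiation, exercise and combination, and rose by 0.59 (log2, SE 0.09, adjusted p 0.0466, edgeR). Its relative ID3 had 51.4, 54.8, 77.7 and 79.7 CPM and just missed the threshold (adjusted p 0.0504, edgeR).

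The list of mesenchymal transition genes was higher in 12 of 35 cases (34.3%, beside 11.6% of all genes) and lower in 0. It had 8 gaps beyond counting error, and 1 member passed the fit. The median difference was 0.35 in the unirradiated pair and 0.087 in the irradiated pair. TGFBI, a matrix protein induced by TGF-beta, had 231 CPM in control, 256 CPM with radiation, 380 CPM with exercise and 362 CPM in the combination, a gap of 1.41-fold (adjusted p 0.118, edgeR). ZEB2, a repressor of epithelial genes, had 413 and 387 reads in the sedentary libraries against 545 and 646 in the exercised ones. TGFB2, which encodes a TGF-beta ligand, had 29.5, 31.2, 37.7 and 42.1 CPM. The defining epithelial gene CDH1 overlapped, with 5954 reads in control, 6053 with radiation, 5521 with exercise and 6049 in the combination, as did ZEB1 and FN1.

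Collagens were higher in 5 of 32 cases (15.6%) and lower in 3, close to the 11.6% and 13.2% of all genes. COL8A1, a short-chain collagen of vessel walls, had 318 reads in control, 287 with radiation, 480 with exercise and 570 in the combination, and COL6A1 had 109, 130, 190 and 180 reads. COL10A1 had 11.9 CPM in control, 15.5 CPM with radiation, 64.4 CPM with exercise and 25.8 CPM in the combination, so that exercise alone stood far above the other libraries. COL10A1 (chr6:116118909-116217144, minus strand) lies inside NT5DC1 (chr6:116100853-116249497, plus strand), which followed it with 42.7, 47.9, 143 and 72.2 CPM, and the reads of the 2 genes cannot be told apart. On the lower side COL27A1 had 6956 and 6948 reads in the sedentary libraries and 5519 and 5820 in the exercised ones. Host fibroblast markers were higher in 1 of 12 cases and lower in 0, and their summed level of 419 CPM in control and 298 CPM with radiation overlapped the 429 CPM of exercise and 259 CPM of the combination. The part of host RNA in the collagen values was not tested.

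Heat shock genes encode the chaperones that refold proteins under heat and other stress. Of 22 compared, 13 were higher in both exercised libraries (59.1%, beside 11.6% of all genes) and 0 were lower (beside 13.2%). A higher gap beyond counting error was left in 9 of the 22, beside 1.73% of all genes. In edgeR and DESeq2 0 passed the fit, with 6 at an unadjusted p under 0.05 in edgeR. The differences were small and even, with a median of 0.20 between the sides, 0.14 in the unirradiated pair and 0.24 in the irradiated pair. HSPB1, the small chaperone HSP27, had 124 CPM in control, 130 CPM with radiation, 154 CPM with exercise and 179 CPM in the combination, a gap of 1.18-fold (95% counting interval 1.13 to 1.23). HSPA8, the constitutive HSC70, had 734, 688, 823 and 806 CPM. AHSA1, the activator of the HSP90 ATPase, had 80.5 and 82.1 CPM in the sedentary libraries and 96.4 and 94.1 CPM in the exercised ones. HSPA1L, with 132, 127, 181 and 176 reads, had the widest gap of the list, 1.42-fold, at a depth that gave an interval of 1.13 to 1.79. The strictly stress-induced HSPA6 did not follow them: it had 222 reads in control, 51 with radiation, 111 with exercise and 58 in the combination. HSPA1A and HSPA1B, near-identical copies that share reads, overlapped between the sides. Under total-count scaling the number of higher heat shock genes was 9 of 22, and 9 also with FPKM, beside 8.72% and 8.41% of all genes.

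Genes of cholesterol and fatty acid synthesis were higher in 13 of 33 cases (39.4%, beside 11.6% of all genes) and lower in 1. A gap beyond counting error was present in 10 of the higher genes. In edgeR and DESeq2 0 passed, with 14 at an unadjusted p under 0.05 in edgeR. The median difference was 0.28 in the unirradiated pair and 0.14 in the irradiated pair. FDFT1, squalene synthase, had 75.7 CPM in control, 73.4 CPM with radiation, 95.2 CPM with exercise and 94.7 CPM in the combination. SCD, the stearoyl-CoA desaturase, had 346, 333, 429 and 413 CPM. In both the libraries of a side were close, with gaps of 1.25-fold and 1.19-fold. DHCR7, the last step to cholesterol, had 36.7 and 37.2 CPM against 50.2 and 44 CPM. The fatty acid synthase FASN overlapped, with 110 CPM in control, 91.5 CPM with radiation, 152 CPM with exercise and 84.3 CPM in the combination.

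NF-kappaB targets were higher in 8 of 23 cases (34.8%, beside 11.6% of all genes) and lower in 0, with 6 gaps beyond counting error. In edgeR and DESeq2 0 passed, with 10 at an unadjusted p under 0.05 in edgeR. The chemokine genes CXCL1, CXCL2, CXCL3 and CXCL8 were all among them, of which CXCL2 had the widest gap, with 45 CPM in control, 43.6 CPM with radiation, 60.9 CPM with exercise and 57.5 CPM in the combination. BCL3, an atypical member of the inhibitor family of NF-kappaB, had 57.9 and 60.1 CPM against 81.7 and 71.1 CPM. The feedback gene TNFAIP3 and the adhesion gene ICAM1 overlapped between the sides. With total-count scaling 6 of the 23 were higher (26.1%) and 1 lower, beside 8.72% and 15.1% of all genes.

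**Figure D3:**
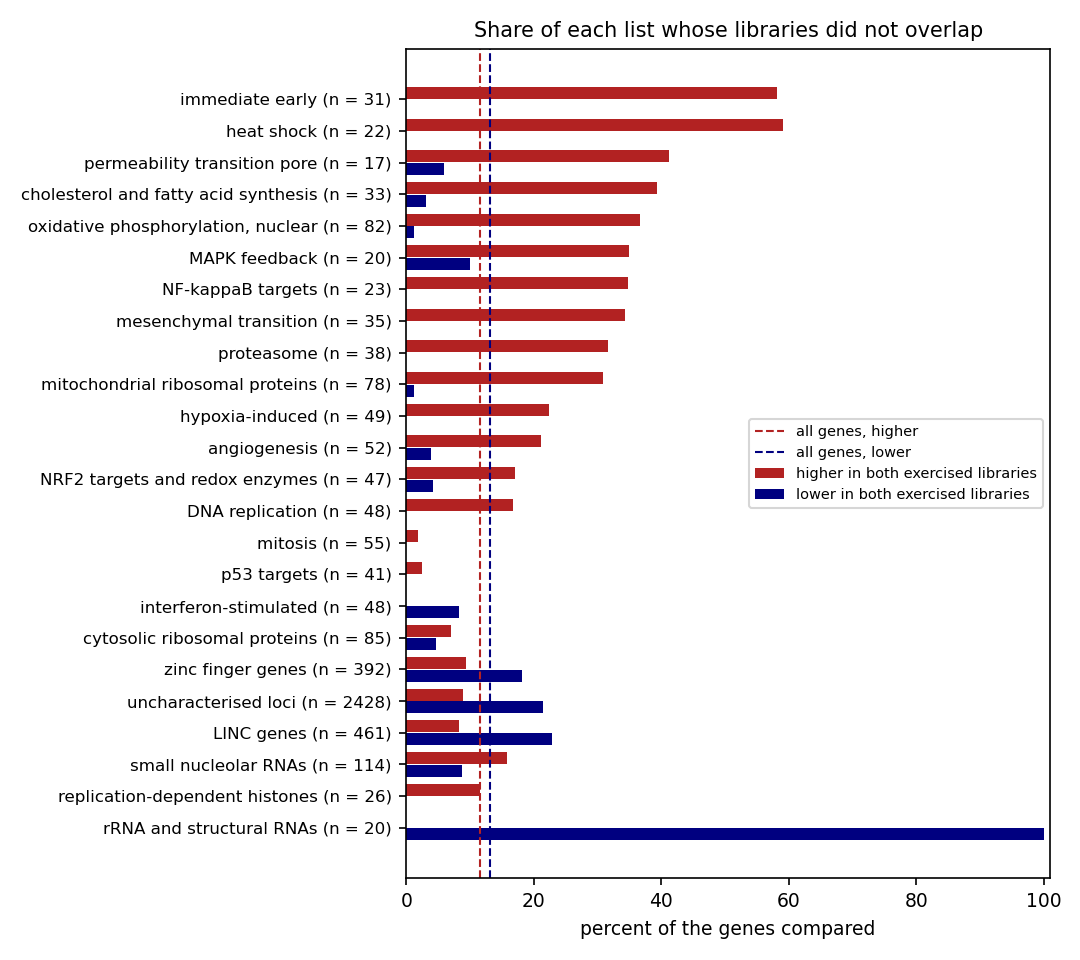
Bars give the percent of each gene list with both exercised libraries above (red) or below (blue) both sedentary ones, and dashed lines give the same shares over all 19393 genes, 11.6% and 13.2%. Immediate early and heat shock genes stand at 58.1% and 59.1% higher, the ribosomal and structural RNAs at 100% lower, and LINC genes at 22.8% lower.

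Nuclear genes of mitochondrial proteins overlapped between the sides in most cases. Of 82 genes of oxidative phosphorylation, 51 overlapped, 30 were higher (36.6%) and 1 lower, with ratios above 1 for 52 in the unirradiated and 72 in the irradiated pair, yet only 3 gaps were beyond counting error and the median difference was 0.067. Of 78 mitochondrial ribosomal protein genes 53 overlapped, 24 were higher (30.8%) and 1 lower, and of 38 proteasome genes 12 were higher (31.6%) and 0 lower. In edgeR and DESeq2 0 genes of these 3 lists passed, with 3, 0 and 1 at an unadjusted p under 0.05 in edgeR. NDUFS5, a subunit of complex I, had 742 reads in control, 812 with radiation, 927 with exercise and 900 in the combination, and ATP5PO, a subunit of the ATP synthase, had 15.4, 16.6, 18.8 and 20.5 CPM. PSMD2, of the base of the proteasome cap, had 1499, 1495, 1790 and 1675 reads. The counts moved with the scaling of the libraries, as did the share of all genes. Under total-count scaling the higher genes were 22 of 82 (26.8%), 16 of 78 (20.5%) and 9 of 38 (23.7%). The share of all genes that were higher was 8.72% with this scaling and 11.6% with TMM. Cytosolic ribosomal protein genes were higher in 6 of 85 cases and lower in 4.

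Oxygenation and redox genes, the subject of the study, were read in the same manner. HIF1A, the oxygen-regulated subunit of hypoxia-inducible factor, had 154 CPM in control, 218 CPM with radiation, 181 CPM with exercise and 197 CPM in the combination, and CA9, the hypoxia-induced carbonic anhydrase IX, had 38.8, 69.8, 36.1 and 92.6 CPM. Both overlapped between the sides, as did MKI67, the Ki-67 proliferation marker, with 104, 49, 174 and 42.7 CPM, and GSTO1 with 20.4, 24, 21.4 and 25.9 CPM. GSTM5 was read 0 times in control, radiation and exercise and 1 time in the combination, and SLC25A31 had 5, 2, 2 and 8 reads in control, radiation, exercise and combination. MIR106B had 4, 0, 4 and 4 reads, and these 3 genes were under the minimum for comparison. A count of 0 allows up to 3 reads, and no difference was detectable at this depth.

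Beside 11.6% higher and 13.2% lower over all genes, hypoxia-induced genes were higher in 11 of 49 cases (22.4%) and lower in 0. Among them were BHLHE40, a transcription factor that also belongs to the clock, with 9046 reads in control, 9790 with radiation, 12582 with exercise and 12645 in the combination, and JMJD6 with 1472, 1466, 1777 and 1730 reads. Of 16 oxygen sensing genes, 4 were higher and 1 lower, all with gaps of at most 1.06-fold, EPAS1 (HIF-2 alpha) having 5132 and 4960 reads against 5284 and 5112. NRF2 targets and redox enzymes were higher in 8 of 47 cases (17%) and lower in 2 (4.26%), beside 11.6% and 13.2% of all genes. FTH1, the ferritin heavy chain, had 17583 reads in control, 17842 with radiation, 23252 with exercise and 18616 in the combination. Components proposed for the mitochondrial permeability transition pore were higher in 7 of 17 cases (41.2%) and lower in 1, with 2 higher gaps beyond counting error. The lower one was CKMT2, a mitochondrial creatine kinase, which overlaps the antisense gene CKMT2-AS1. It had 44 and 42.3 CPM in the sedentary libraries and 35.9 and 31.3 CPM in the exercised ones. With total-count scaling 4 of the 17 pore components were higher (23.5%), and 4 also with FPKM, beside 8.72% and 8.41% of all genes. In edgeR and DESeq2 0 of the 17 passed, with 1 higher and 1 lower at an unadjusted p under 0.05 in edgeR.

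Beside 11.6% higher and 13.2% lower over all genes, angiogenesis genes were higher in 11 of 52 cases (21.2%) and lower in 2 (3.85%). They included ID1 and ID3, already given, APLNR, the apelin receptor of endothelial cells, with 21 reads in control, 20 with radiation, 57 with exercise and 36 in the combination, and CXCR4 with 19, 18, 30 and 32 reads. The gap of APLNR was beyond counting error and that of CXCR4 was within it. The summed endothelial markers had 37.9 and 35.3 CPM in the sedentary libraries against 31.9 and 34.6 CPM. Of these 14 markers 11 were under the minimum, and the 3 compared all overlapped between the sides. The sum rests mostly on 2 genes that moved differently. EGFL7 had 530 reads in control, 776 with radiation, 466 with exercise and 842 in the combination, and PECAM1 had 655, 334, 484 and 181.

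Several programs had list medians far apart in the 2 pairs. Mitosis genes were higher in 1 of 55 cases (BUB3) and lower in 0, with medians of 0.58 in the unirradiated pair and 0.0080 in the irradiated pair. In edgeR and DESeq2 0 of them passed, with 20 higher and 0 lower at an unadjusted p under 0.05 in edgeR. DNA replication genes were higher in 8 of 48 cases (16.7%, beside 11.6% of all genes) and lower in 0 (beside 13.2%). Their medians were 0.37 and 0.083, with 0 gaps beyond counting error. Of the replication genes 0 passed in edgeR or DESeq2, with 13 higher at an unadjusted p under 0.05 in edgeR. CCNE1, the G1 cyclin E1, had the widest gap of these, with 185 reads in control, 168 with radiation, 263 with exercise and 196 in the combination. Interferon-stimulated genes were higher in 0 of 48 cases and lower in 4, with medians of -0.58 and 0.12, and 0 passed in edgeR or DESeq2, with 8 lower at an unadjusted p under 0.05 in edgeR. IFI44L had 140 reads in control, 129 with radiation, 10 with exercise and 90 in the combination, and SP110, OAS1 and STAT2 were the others. Only 1 of 41 p53 targets was higher, TP53I3, and CDKN1A overlapped with 2164, 11361, 2752 and 13349 reads, the 2 irradiated libraries being the high ones.

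**Figure D4:**
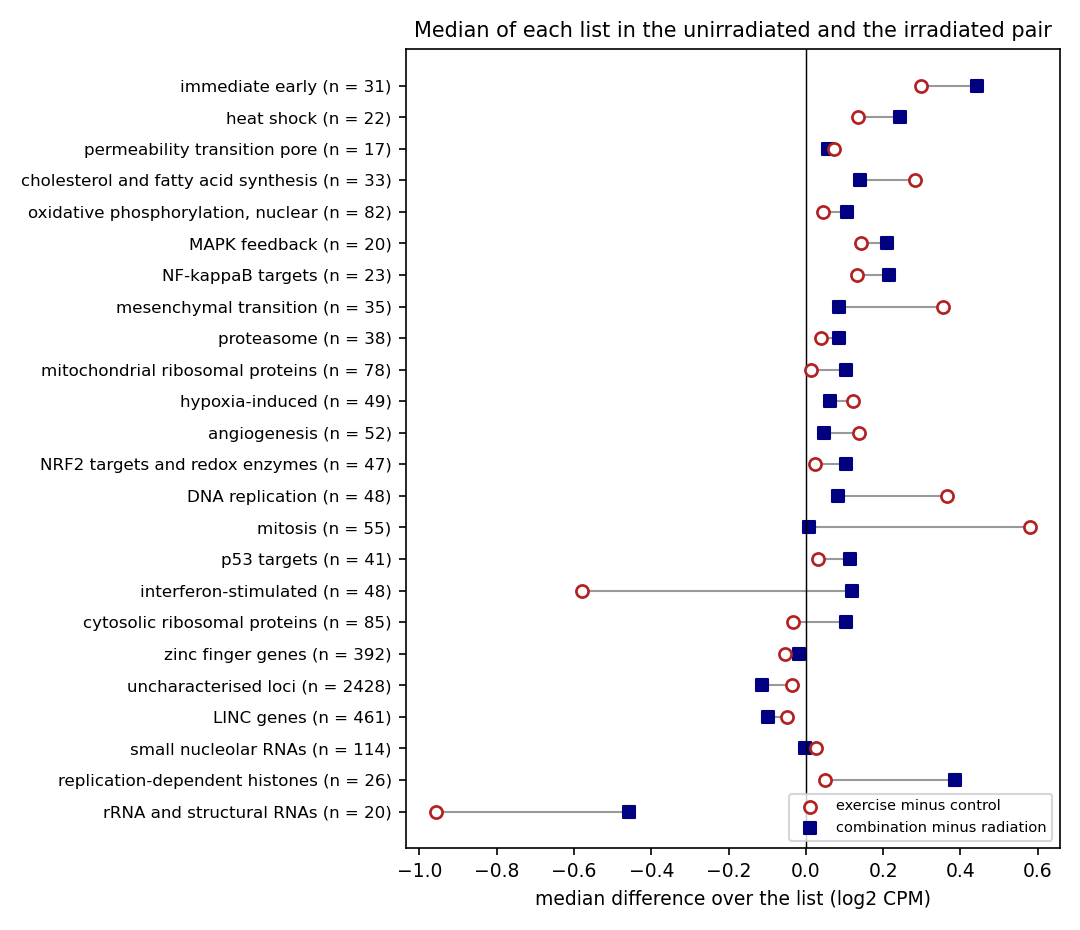
For each list the median difference over its genes, in log2 CPM, is given for exercise minus control (open circles) and combination minus radiation (filled squares). The 2 medians lie on the same side of 0 for immediate early genes (0.30 and 0.44) and the ribosomal and structural RNAs (-0.96 and -0.46), far apart for mitosis genes (0.58 and 0.0080) and on opposite sides for interferon-stimulated genes (-0.58 and 0.12).

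Ribosomal RNA and a chosen few structural RNAs, none of which carries a polyA tail, were on the lower side. The list held the 45S, 28S and 18S copies, RN7SL1, RN7SL2, RN7SK, RMRP and RPPH1, and all 20 of these were lower in both exercised libraries, each with a gap beyond counting error, and 5 fell in the fit. Replication-dependent histone mRNAs and small nucleolar RNAs, also without a polyA tail, did not share this. Over all genes 11.6% were higher and 13.2% lower. Of 26 histone genes 3 were higher (11.5%) and 0 lower, with medians of 0.051 in the unirradiated pair and 0.39 in the irradiated pair. Of 114 small nucleolar RNAs 18 were higher (15.8%) and 10 lower (8.77%). Transfer RNA genes leaned lower, with 5 of 23 lower (21.7%) and 1 higher (4.35%), and a median difference of -0.16 between the sides. In edgeR and DESeq2 0 of the histone genes and 0 of the small nucleolar RNAs passed, with 3 and 2 at an unadjusted p under 0.05 in edgeR. Of the 20 listed RNAs, 15 are copies of the 45S, 28S and 18S ribosomal RNA genes, whose sequences share reads, so they are not separate observations. The median difference was -0.96 in the unirradiated pair and -0.46 in the irradiated pair. RNA18SN1 had 465 CPM in control, 594 CPM with radiation, 231 CPM with exercise and 370 CPM in the combination, and fell by 0.84 (log2, SE 0.13, adjusted p 0.0383, edgeR). The other 18S copies that fell, RNA18SN2 to RNA18SN5, had fitted values of -0.80 to -0.84. RNA28SN1 had 1327, 1383, 715 and 1086 CPM and did not pass (adjusted p 0.401, edgeR).

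The small RNAs of the group are made by RNA polymerase III or belong to ribonucleoproteins. RN7SL2, a copy of the RNA of the signal recognition particle, had 65.1 CPM in control, 35.6 CPM with radiation, 18.9 CPM with exercise and 24.9 CPM in the combination, and RN7SL1 had 73.1, 40.9, 21.2 and 33.2 CPM. Control stood above radiation in both, and the exercised libraries were lower still. RN7SK, which holds the elongation factor P-TEFb in an inactive state, had 123 reads in control, 132 with radiation, 40 with exercise and 78 in the combination. RMRP and RPPH1, the RNAs of RNase MRP and RNase P, had 43, 46, 20 and 21 reads and 34, 36, 16 and 15 reads. RPPH1 had the widest gap of all lower genes, 2.02-fold, and the ratio of its nearest exercised library to its nearest sedentary one had a 95% counting interval of 0.251 to 0.905. Libraries were made from polyA-selected RNA, so what remains of these RNAs also depends on that selection, whose part was not tested. RN7SL2 lies inside LOC105378179 and RN7SL1 inside RPS29, both of which were lower as well, and their reads cannot be told apart.

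**Figure D5:**
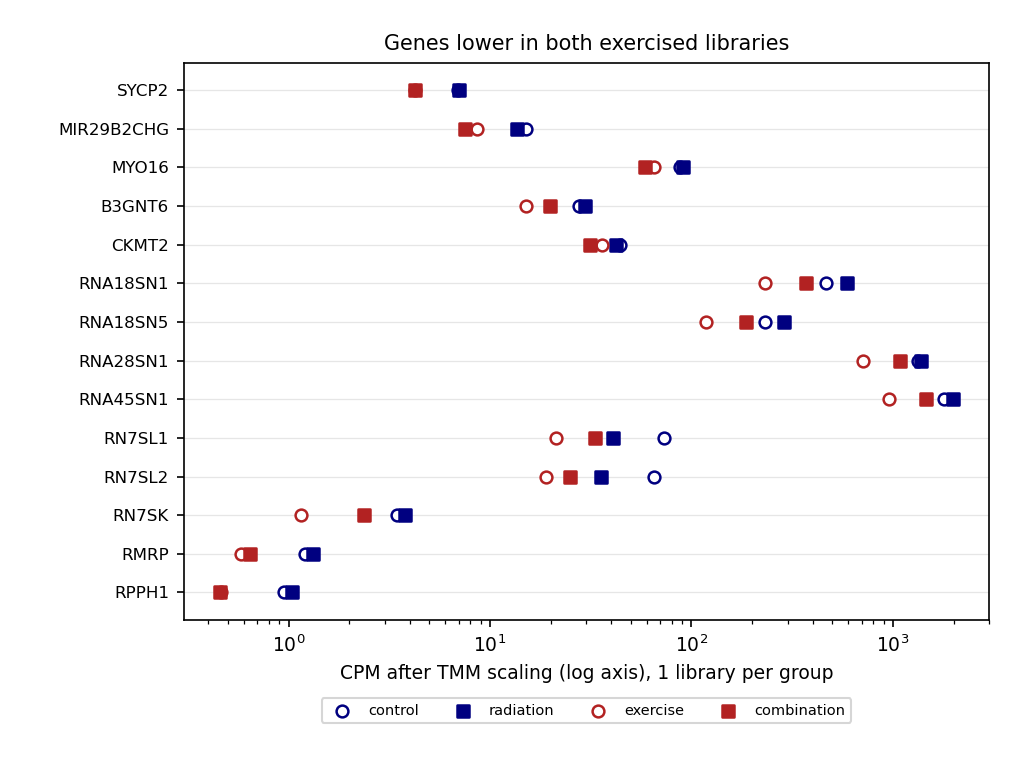
The CPM of 14 genes in the 4 libraries is plotted on a log axis, with sedentary libraries in blue, exercised libraries in red and irradiated libraries as filled squares. In each row both red symbols lie to the left of both blue ones, with the libraries of a side nearly on top of each other for SYCP2 and RPPH1 and exercise alone lowest for the ribosomal and 7SL RNAs.

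Among genes with a mean of at least 100 reads, SYCP2, a protein of the meiotic synaptonemal complex, had the widest lower gap. It had 248 reads in control, 243 with radiation, 147 with exercise and 139 in the combination, a gap of 1.63-fold, and did not pass the fit (adjusted p 0.418, edgeR). MIR29B2CHG, the host transcript of MIR29B2 and MIR29C on chromosome 1, had 15.1 CPM in control, 13.6 CPM with radiation, 8.6 CPM with exercise and 7.51 CPM in the combination (adjusted p 0.0949, edgeR). The reads within MIR29C followed it, with 33, 27, 20 and 17, while mature microRNAs are not measured by these libraries. The host transcript of the MIR23A, MIR27A and MIR24-2 cluster went the other way: MIR23AHG had 27.3 and 25.6 CPM in the sedentary libraries and 38.9 CPM in both exercised ones (adjusted p 0.0984, edgeR). B3GNT6, a glycosyltransferase of mucin core 3 chains, had 27.8, 29.7, 15.2 and 19.8 CPM (adjusted p 0.057, edgeR), and the unconventional myosin gene MYO16 had 88, 90.8, 65.5 and 58.6 CPM (adjusted p 0.0983, edgeR).

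Long noncoding RNA genes lay on the lower side by larger counts. Of 3429 genes annotated as such, 720 were lower (21%) and 322 higher (9.39%), against 10.7% and 12.2% of the 14491 protein-coding genes. LINC genes were lower in 105 of 461 cases (22.8%) and uncharacterised loci in 520 of 2428 (21.4%), with median differences of -0.090 and -0.069. LINC02280 had 106 and 102 reads in the sedentary libraries and 67 and 63 in the exercised ones, and HOXB-AS2 had 397, 450, 269 and 247 reads. In edgeR 0 LINC genes passed the fit, with 28 lower and 5 higher at an unadjusted p under 0.05, and DESeq2 called 0.

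Gene length went along with the side. With genes split into 5 equal groups by genomic span, the shortest group, up to 7.698 kb, was higher in 16.3% and lower in 9.83% of cases, and the longest group, above 89.72 kb, was higher in 7.55% and lower in 17.3%. The median difference between combination and radiation was 0.069 in the shortest and -0.068 in the longest group, but 0.014 and -0.0016 between exercise and control. The trend was larger in the irradiated pair. Immediate early genes had a median span of 5822 bases. Whether span or RNA quality bears on the group values was not tested.

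Homeobox genes of the HOX clusters were lower in 5 of 35 cases (14.3%) and higher in 2 (5.71%), the lower share being near the 13.2% of all genes. HOXC4, HOXC5 and HOXC6 overlap each other and HOXB3 overlaps HOXB-AS2, so that these lower genes are not separate observations. HOXC6 had 1018 and 996 reads in the sedentary libraries and 780 and 756 in the exercised ones, and HOXB3 had 3210 and 3405 against 2548 and 2497, while HOXD10 was higher with 76, 57, 129 and 100 reads. Circadian clock genes were lower in 4 of 22 cases (18.2%) and higher in 2 (9.09%), near the shares of all genes. Zinc finger genes were lower in 71 of 392 cases (18.1%) and higher in 37 (9.44%), beside 13.2% and 11.6% of all genes.

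Skeletal muscle genes were checked because a xenograft can carry muscle of the host. Their sum was 685 CPM in control, 745 CPM with radiation, 845 CPM with exercise and 776 CPM in the combination. Both exercised libraries thus lay above both sedentary ones, but most of the reads came from the tropomyosin gene TPM1. The muscle genes had 24467, 25895, 29199 and 25408 reads in the same order, of which TPM1 had 16253, 15409, 20682 and 14372. TPM1 overlapped between the sides, so the order of the sums does not describe the muscle genes as a group. Of 25 compared, 2 were higher (RYR1 and TCAP) and 3 lower (CKMT2, NEB and LDB3). The myosin genes MYH4 and MYH1 were highest in the irradiated libraries, and exercise alone lay above control in both. MYH4 had 1 read in control, 485 with radiation, 25 with exercise and 417 in the combination, and MYH1 had 0, 278, 11 and 258. MYH7, the slow muscle myosin, had 0, 7, 2 and 96 reads, so its place among the genes that rose (3.85, SE 0.55, adjusted p 0.0265, edgeR) rests on the combination library, its sides overlapped and its fitted value depends on the prior at such counts. DESeq2 gave MYH7 no adjusted p. Macrophage and neutrophil markers were higher in 1 of 8 cases (12.5%, beside 11.6% of all genes). Their summed level was 380 and 439 CPM against 372 and 505 CPM, with S100A8, TYROBP, C1QA and C1QB at 0 reads. The macrophage and neutrophil markers had 13568, 15255, 12857 and 16532 reads in control, radiation, exercise and combination. Of these the single gene CSF1R held 9933, 8311, 9221 and 8208. Keratinocyte markers summed to 735 and 545 CPM in the sedentary libraries and to 1208 and 466 CPM in the exercised ones. The keratinocyte sum rests mostly on KRT17 and KRT15, which moved differently. KRT17 had 15735 reads in control, 6420 with radiation, 30551 with exercise and 5326 in the combination, and KRT15 had 4668, 8320, 3499 and 6149. Lymphocyte markers summed to 0.980 to 2.41 CPM. Beside these sums, the immediate early genes summed to 1797 CPM in control, 2042 CPM with radiation, 2398 CPM with exercise and 2753 CPM in the combination. The part of host cells in the values above was not tested.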

How the data were processed

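PolyA-selected RNA of A549 xenografts was measured in 4 groups with 1 library per group, placed by the labels. Per the submitters' processing notes the authors used cutadapt, Bowtie2 2.3.4.1 with GRCh38 and featureCounts 1.6.0, and they deposited a read count per gene, not normalized. Bowtie2 makes no spliced alignments, which can lower the counts of genes with many short exons. The authors also deposited FPKM values, scaled to gene length and library size, which were used only as an alternative. For strand setting, mouse reads and tumor pooling, the choice made is not given in the sources used here.

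Counts of 19393 genes with a mean of at least 20 reads were scaled by TMM (edgeR 4.0.16, R 4.3.3, prior count 0.5). Totals were 33432637 to 35408705 reads, and a count of 0 allows 3 reads, or 0.084 to 0.0916 CPM. Intervals are exact at 95% and cover counting error only. Every p-value given with a named gene comes from edgeR's quasi-likelihood fit of a radiation and an exercise term over all genes. Counts from DESeq2, from other settings of the edgeR fit and from fits without a library are given with their setting. The permutation bound comes from an exact permutation test. Each SE was worked back as the size of the fitted log2 value divided by the square root of its F statistic. It rests on the spread shared across genes and is not a spread measured between replicates. The calls were tested on simulated data. RefSeq GRCh38.p14 matched 18354 symbols and gave coordinates and promoters.

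The comparison, its members and the 54 gene lists were chosen with earlier results of these data known. Genes named are those the study named, the 15 widest gaps in each direction at a mean of at least 100 reads and 5 at lower means, and up to 4 separated and 2 overlapping members of each list in each direction. The text gives part of these. ATF3, CXCL1, EGR1, FOSB, JUNB, MIR29C, MYH1, MYH4, RN7SL1, RNA28SN1, the 18S copies and several overlapping genes lie outside this rule. These overlapping genes were CDH1, DUSP4, FASN, FN1, ICAM1, SPRY2, TNFAIP3, TPM1 and ZEB1. All genes outside the rule were chosen after their values were seen. Alternatives were DESeq2 1.42.0, other scalings, minimum counts, priors, the FPKM values with 0.1 added, an exercise term alone, list means and leaving out each library. TMM factors from all genes in the file were added after the data were seen. Some genes are not reported here.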

Additional observations from a re-analysis of the deposited data

Results flagged for a closer look

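For 3 gene lists and 3 genes the exercise ratio had opposite directions in the unirradiated pair (exercise minus control) and in the irradiated pair (combination minus radiation). With 1 library per group the difference between the 2 ratios was not tested. Interferon-stimulated genes, 48 in number, had a median log2 difference of -0.5781 in the unirradiated pair and 0.1204 in the irradiated pair. Antigen presentation genes had medians of -0.1635 and 0.1303, and the keratinocyte markers had medians of 0.4109 and -0.2404. HIF1A differed by 0.2332 and -0.1462, CA9 by -0.104 and 0.4076, and MKI67 by 0.7469 and -0.1968. These are values of single library pairs, given without an explanation.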

How the results depend on the processing

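Counts of separated genes depended on what was asked of the gap: 2248 higher and 2562 lower genes became 335 and 379 beyond counting error and 17 and 54 at 1.5-fold, and 4178 were higher with no minimum count. Of the separated genes 46.7% were higher, against 36.6% with total-count scaling, 36.8% with FPKM and 52.6% with TMM from all genes. With 1 library left out, so that a side had 1, 5039 to 6839 genes were higher and 5400 to 6909 lower. The fit called 11 higher and 5 lower genes. It called 17 and 16 with DESeq2, 27 and 21 with total-count scaling, 7 and 1 at a mean of at least 100 reads, 87 and 61 with no minimum count, and 31 and 20 with TMM from all genes, which held all 16. With exercise as the only term edgeR called 0 and 0 (277 genes at an unadjusted p under 0.05), and without each library in turn, fitted with that term alone, 0 to 0 in each direction (97 to 1054 genes). The cause was not tested, beyond fewer genes or libraries where these were removed. List medians stayed within the spread of the 2 pairs for 45 of 52 lists with total-count scaling, 42 with FPKM and 24 without the combination library. The median of the immediate early genes was 0.30 to 0.49 and that of heat shock genes 0.11 to 0.25 with 1 library left out. No paired analysis was possible because the columns carry no replicate numbers and each group has 1 library, beyond the radiation term of the fit, which sets exercise beside control and combination beside radiation. Depth limits genes under about 100 reads, and the number of libraries limits the rest.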
